A study of Mus musculus with 24 samples.

Results

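Complex I (NADH:ubiquinone oxidoreductase) was followed through 44 mouse genes whose symbol starts with Nduf, measured in erythroblasts in which the ribosomal protein Rps19 or Rpl11 was knocked down. They were found as the probe sets with a single gene symbol of that name, 88 in all, and each gene was read from its brightest probe set over the 24 arrays. Of the 44 genes, 27 carry accessory names (Ndufa, Ndufab, Ndufb and Ndufc), 9 carry core names (Ndufs and Ndufv) and 8 are assembly factors (Ndufaf). After the lower 50% of probe sets by mean signal had been left out, 42 of them remained among 11035 tested genes (25 accessory, 9 core and 8 assembly). The 2 genes that fell below that limit were Ndufa4l2 and Ndufb4, with mean log2 signals of 5.99 and 6.13, against 9.16 to 14.48 among the tested members.

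Complex I is the largest enzyme of the respiratory chain. It oxidises NADH in its matrix arm, passes the electrons along iron-sulphur clusters to ubiquinone and pumps protons through its membrane arm. The catalytic core is conserved from bacteria, part of it being encoded by mitochondrial DNA, and the accessory subunits surround it. Assembly factors bind intermediates and are absent from the finished enzyme. Erythroblasts need working mitochondria for haem synthesis and lose them when they mature. All Nduf mRNAs are nuclear and are translated on cytosolic ribosomes, which is the step the knockdowns touch. The core class by name is wider than the biochemical core, since Ndufs4, Ndufs5 and Ndufv3 are accessory subunits of the mammalian enzyme, and Ndufa4 has been assigned to cytochrome c oxidase.

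The cells were immortalized mouse erythroblasts kept without serum on Epo, SCF and Dex, and the labels used here give neither their genotype nor the number of clones. There were 4 groups, namely cells without a construct (untransduced), cells with a control construct, and cells with a lentiviral shRNA against Rps19 or against Rpl11, each with 3 gradients that the labels call biological replicates. Cycloheximide was given to every culture before harvest, which came 3 days after the lentivirus in transduced cells. Sucrose gradients separated each lysate into 2 pools, polysomal and subpolysomal, and each pool went onto 1 Affymetrix array with 7 µg of RNA per labelling. One Rps19 library pair (replicate 3) is marked puro in its description, and the labels do not explain the mark.

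Recruitment is the log2 polysomal minus the log2 subpolysomal signal of a gradient, and level is the mean of the log2 signals of both pools. A recruitment of 1 means a signal in the polysomal array that is 2-fold that in the subpolysomal array, after the authors scaled all arrays to the same mean, so 0 marks equal relative signal and not equal numbers of molecules. Tests are limma's moderated tests in 1 fit over the 12 gradients, with Benjamini-Hochberg adjustment over 11035 genes and a threshold of 0.05. With bulk RNA, fewer cells of a type and less RNA per cell cannot be told apart.

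Each targeted gene was lower under its own shRNA. Rps19 level fell by 1.53 on the log2 scale under its own shRNA (2.88-fold, SE 0.158, limma adjusted p = 0.00369), and Rpl11 level fell by 2.66 under its own (6.32-fold, SE 0.251, adjusted p = 0.0011). Rps19 level was also lower with the Rpl11 shRNA, by 1.49-fold (adjusted p = 0.0272). Of the 9 erythroid markers measured, 8 had a mean log2 signal above the dim limit (Hba-a1 did not). Of the markers of other lineages, Pf4 was highest at 1078 to 5645, followed by Csf1r at 177 to 655. Itgb3, Cd3e and Gp9 reached 348, 347 and 274, and the others stayed at or below 206. Pf4 belonged to a list whose summed signal ran from 1725 to 6046 under the control construct and from 2375 to 4563 with the Rpl11 shRNA. Most Rpl11 arrays stood apart in the Gapdh control probe sets, a sign of RNA quality, and fewer did in those of Actb. The Gapdh probe sets of the Rpl11 arrays, as 3′ over 5′ signal on the log2 scale, stood at 0.99 to 3.31 on polysomal arrays and at −0.46 to 3.90 on subpolysomal arrays, against −0.42 to 0.42 on the 18 arrays of the other groups. The same ratio for Actb was 0.62 and 0.54 in the first Rpl11 gradient (polysomal and subpolysomal). It was 0.94 and 1.57 in the second and 1.35 and 1.96 in the third, against 0.44 to 0.98 in the other groups. Median signals of the Rpl11 arrays were 46.8 to 49.0 (polysomal) and 65.7 to 86.7 (subpolysomal), against 58.9 to 68.9 and 97.2 to 125 elsewhere.

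In untransduced cells the complex I mRNAs were spread widely between the pools, and more of them leaned to polysomes than away from them. Recruitment ran from −0.93 for Ndufaf8 to 1.11 for Ndufb3. Against 0, 16 of 42 members were higher and 4 were lower, where 40.9% of all tested genes were called, 19.5% higher and 21.4% lower. The median was 0.13 over the members and −0.09 over all tested genes. By class the median was 0.17 for accessory, 0.29 for core and 0.07 for assembly genes. Scaling moves these calls: with each array centred on its median the recruitment of all genes had a median of 0.72, and 40 members were then higher and 0 lower. Ndufa10 and Ndufb11, described next as low, then stood at 0.42 and 0.054.

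Ndufb3 and Ndufa5 led the accessory genes when read from the brightest probe sets. Dimmer probe sets of Ndufa5, Ndufc2 and Ndufb2 above the dim limit had higher means than Ndufb3, at 1.80, 1.19 and 1.13. Ndufb3, a small subunit of the membrane arm, had recruitment values of 1.24, 1.12 and 0.98 in the 3 untransduced gradients, and Ndufa5, a subunit of the matrix arm, had 1.21, 0.93 and 0.82. Both lay above 0 in every gradient (limma adjusted p = 5.38e-05 and 0.000114). At the other end, Ndufb11, a single-pass subunit of the membrane arm, had −0.94, −0.76 and −0.57 (adjusted p = 0.00024), and Ndufa10, which resembles nucleoside kinases, had −0.61, −0.45 and −0.12 (adjusted p = 0.0406). The other bright probe sets of Ndufb11 had means of −0.82 and −0.02, so its low value depends on the probe set. Read from the brightest probe sets, membrane-arm subunits thus stood at both ends.

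Among the core names, Ndufs5 had 1.07, 1.31 and 0.55 and Ndufs4 had 0.97, 0.97 and 0.82, both higher than 0 (adjusted p = 0.0011 and 0.000179). Ndufv1, which carries the flavin that accepts electrons from NADH, had −0.05, −0.15 and −0.29, and Ndufs8, an iron-sulphur subunit, had 0.06 as its highest and −0.37 as its lowest value. Neither of the latter pair was called. The 6 biochemical core subunits had a median of −0.10, against 0.29 for the class by name, which includes accessory subunits. The lower median depends on the probe sets kept. Ndufv2 had a mean of −0.07 in its brightest probe set and 0.34 and 0.45 in its others. Ndufs8 had −0.15 in its brightest and −0.51 to 0.37 in its others. Among the assembly factors, Ndufaf2 was highest with 0.95, 0.05 and 0.44, a wide spread (adjusted p = 0.0268), and Ndufaf8 was lowest with −0.91, −0.91 and −0.98 (adjusted p = 0.000505). Ndufaf8, the partner that stabilises the assembly factor NDUFAF5 in human cells, was the least recruited member in all 4 groups, with group means from −1.51 to −0.73. Ndufaf1, which binds early membrane-arm intermediates, was next with 0.03, −0.45 and −0.34, and was not called.

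Under the control construct Ndufb3 again had the highest and Ndufaf8 the lowest recruitment, with other genes in a different order between them. It gave 16 members higher and 5 lower than 0, where 36.7% of all genes were called, 17.8% higher and 18.9% lower. For the control construct against untransduced cells 0 of 42 members were called in recruitment and 0 in level, and 0% of all genes were called in either. At an unadjusted p under 0.05, limma had 497 genes in recruitment and 260 in level, with 0 members among them in both. The differences of members in recruitment ran from −0.28 to 0.33.

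**Figure D1:**
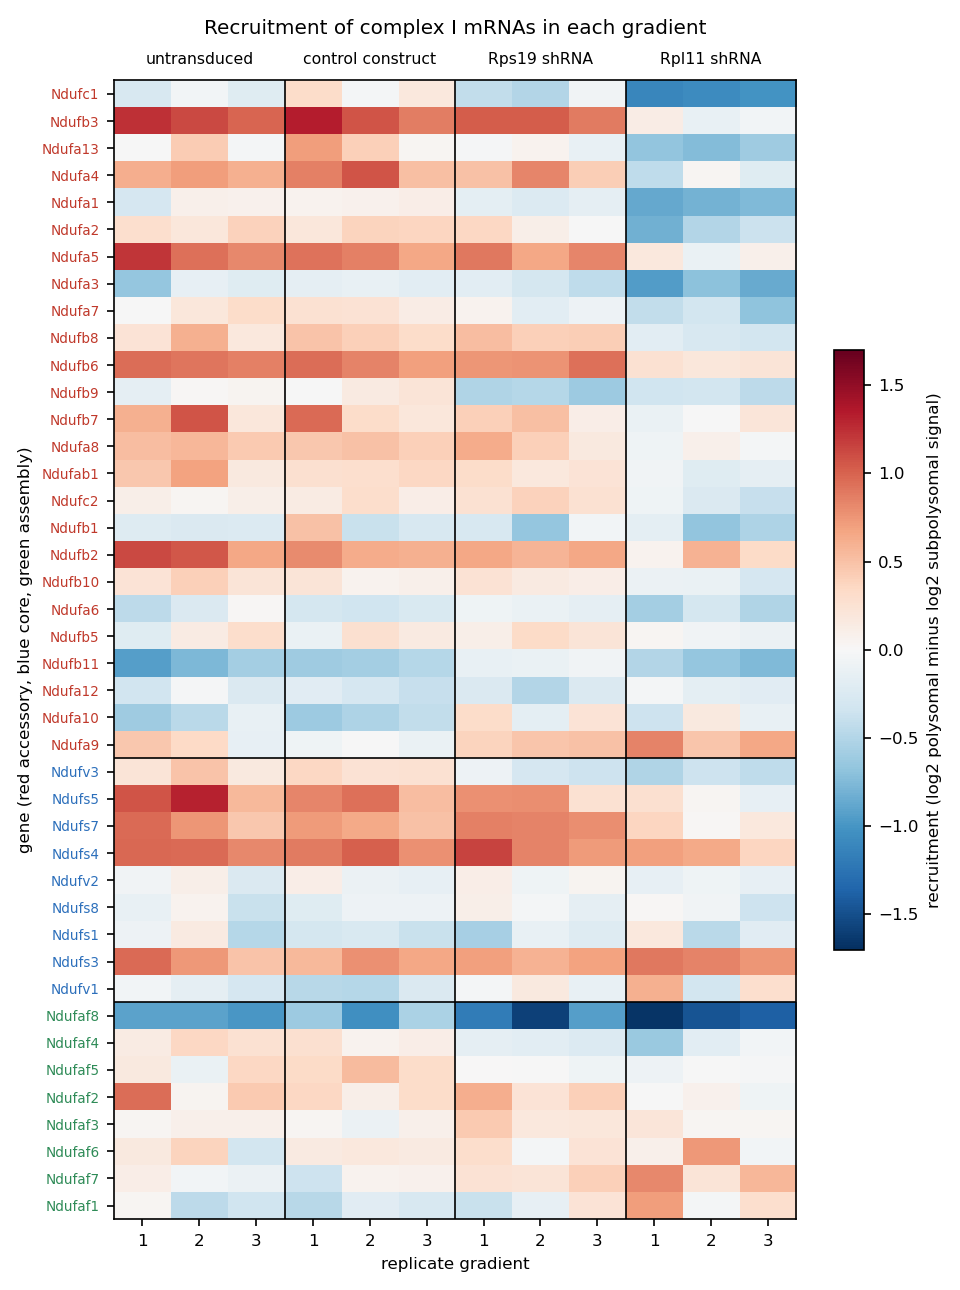
Recruitment (colour, log2 polysomal minus log2 subpolysomal signal) of the 42 tested genes (rows, accessory, core and assembly, each sorted by the Rpl11 difference) in the 12 gradients (columns). In 22 of 25 accessory rows the Rpl11 mean lies below the control mean, while Ndufaf8 is blue in all 12.

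Sequences around the gene starts were searched for an element and 2 motifs. TISU, the translation initiator of short 5′ UTRs, is an element around the start codon that allows initiation without scanning on mRNAs with very short leaders, and it is known from housekeeping and mitochondrial genes. RefSeq promoters of GRCm38.p6 (250 bases before to 50 after the gene start) matched 39 of the 44 members. The TISU letters, which are the capitals in the windows below, were found on the gene strand between 10 bases before and 50 after the start in 4 of 39 members (10.3%), against 114 of 8986 tested genes with a promoter (1.27%). The windows of the 4 carriers are shown with the element in capitals.
Ndufa9 (chr6:126849095-126849124, minus strand): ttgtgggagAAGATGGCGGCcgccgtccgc
Ndufaf8 (chr11:120098935-120098964, plus strand): gcagggcccAAGATGGCGGCgccctcgaga
Ndufs4 (chr13:114388045-114388074, minus strand): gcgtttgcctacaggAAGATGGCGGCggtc
Ndufs7 (chr10:80249464-80249493, plus strand): gccgaggccAAGATGGCGGCgctggcgggt

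The element starts 29, 10, 35 and 24 bases after the gene start in these genes, in that order. The match is a description of letters in this window and not a mapped start site. The carriers did not share a recruitment in untransduced cells, with means of 0.22 for Ndufa9, −0.93 for Ndufaf8, 0.92 for Ndufs4 and 0.73 for Ndufs7. NRF1, a factor known to act on many respiratory genes, binds a palindromic motif. Searched on both strands of the whole window, with any base allowed at the sixth position of its letters, this motif was in 7 of 39 members (17.9%) and in 12.1% of tested genes, and the ETS motif CCGGAAG was in 6 of 39 (15.4%) and in 20.9%. Both shares were close to those of tested genes. The motif of 2 members described below is shown with the match in capitals.
Ndufa5 (chr6:24527697-24527726, minus strand): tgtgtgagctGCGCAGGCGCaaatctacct
Ndufs5 (chr4:123718265-123718294, minus strand): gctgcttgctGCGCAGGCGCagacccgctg

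With the Rpl11 shRNA, recruitment fell relative to the control construct for 11 of 25 accessory mRNAs, led by Ndufc1 and Ndufb3. Of 42 members, 13 fell in recruitment and 1 rose, where 5.67% of all tested genes were called, 3.56% lower and 2.11% higher. Of the 13, 11 were accessory (of 25), 1 had a core name (of 9) and 1 was an assembly factor (of 8). The median difference was −0.46 for accessory, −0.08 for core and −0.09 for assembly genes, against 0.02 for all tested genes. The accessory median stayed between −0.51 and −0.31 under the 3 other scalings of the arrays, whereas the core median turned to 0.11 and 0.10 under the 2 quantile scalings. By biochemical class, the 27 accessory subunits had 11 lower and 1 higher and a median of −0.46, and the 6 core subunits had 0 called and a median of 0.08. Without control replicate 1, 2 or 3 the lower count was 4, 5 and 7, and without Rpl11 replicate 3 it was 4. All 10 Ndufb genes lay below 0, as did both Ndufc genes and 9 of 12 Ndufa genes.

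Accessory mRNAs gave brighter signals than the others, with median mean log2 signals of 13.36, 12.21 and 10.35 for accessory, core and assembly genes. Among the 2244 tested genes at least as bright as the dimmest accessory member, 12% fell in recruitment and 3.83% rose, and their median was −0.10. The accessory share of calls, 11 of 25, is to be read against that background as well.

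Ndufc1, a small subunit of the membrane arm, changed most. Its recruitment was 0.31, −0.03 and 0.18 under the control construct and −1.11, −1.07 and −1.01 with the Rpl11 shRNA. The 3 Rpl11 values lie close together and far below every control value. The difference was −1.22 (SE 0.156, limma adjusted p = 0.0087). In the control its polysomal signals were 17301, 15472 and 15910 and its subpolysomal signals 13918, 15845 and 14042. With the Rpl11 shRNA the polysomal signals were 9693, 14467 and 16148 and the subpolysomal ones 20985, 30384 and 32547. The subpolysomal signal thus rose in all 3 gradients, and the polysomal one was clearly lower only in the first.

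Ndufb3, the best recruited accessory mRNA by the brightest probe sets, lost its preference for polysomes at the scaling used. Control values were 1.34, 1.07 and 0.86, and Rpl11 values were 0.13, −0.12 and −0.05 (difference −1.11, SE 0.154, adjusted p = 0.0087). Its polysomal signal hardly differed between the groups, at 9537, 8311 and 8835 in the control and 7088, 8709 and 9989 with the Rpl11 shRNA. The subpolysomal signal went from 3769, 3946 and 4850 to 6481, 9493 and 10333.

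Ndufa1, an X-linked membrane-arm subunit needed for assembly, had control values of 0.05, 0.07 and 0.11 and Rpl11 values of −0.87, −0.80 and −0.74. The difference of −0.88 (SE 0.134, adjusted p = 0.00899) was many times the spread within either group. Its signal averaged 0.421 of the array maximum, where differences may be compressed. Ndufa1, Ndufb3 and Ndufc1 were the members that kept an adjusted p under 0.05 in each of the 6 fits that left out 1 gradient of either group.

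**Figure D2:**
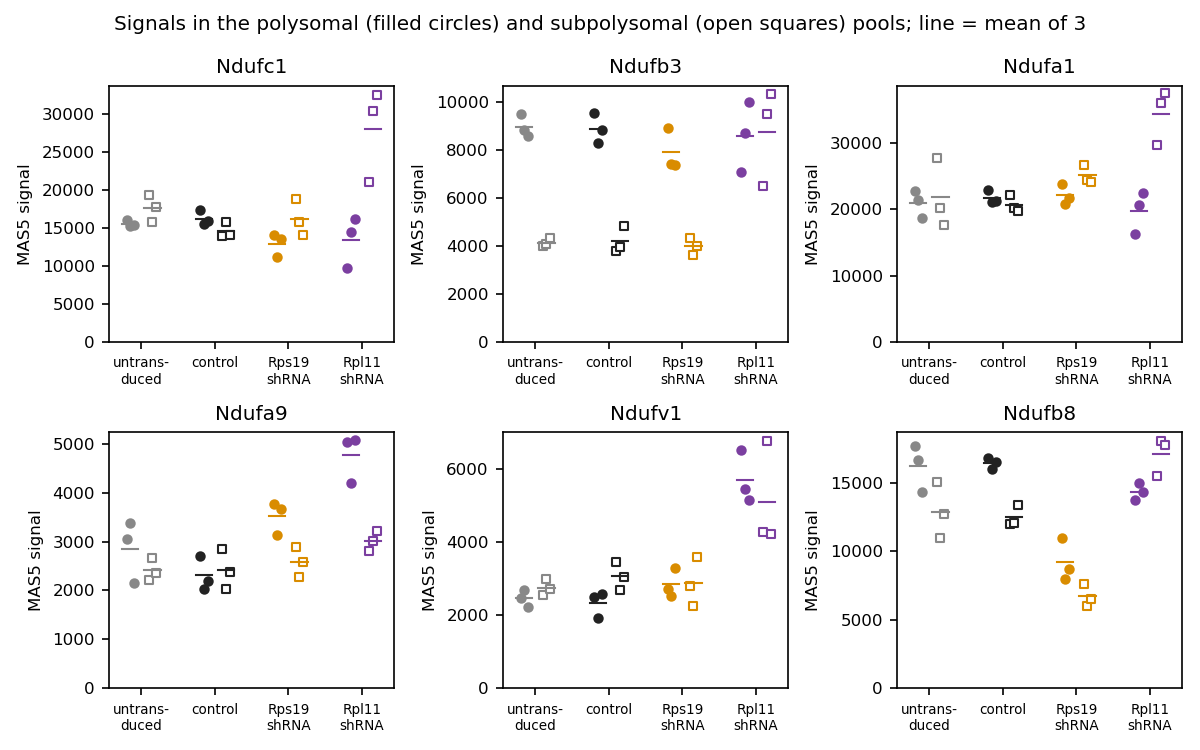
MAS5 signal (linear axis from 0) of 6 genes in the polysomal (filled circles) and subpolysomal (open squares) pool of each gradient, by group, with the mean of 3 as a line. For Ndufc1, Ndufb3 and Ndufa1 the open squares rise with the Rpl11 shRNA, for Ndufa9 the filled circles rise, and for Ndufb8 both pools are low with the Rps19 shRNA.

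Ndufa13, Ndufa4 and Ndufa2 fell by a similar amount. Ndufa13, also known as Grim19, had 0.71, 0.41 and 0.03 in the control and −0.67, −0.73 and −0.61 with the Rpl11 shRNA (difference −1.06, SE 0.19, adjusted p = 0.0142). Ndufa4 had 0.86, 1.07 and 0.52 against −0.43, 0.03 and −0.20 (difference −1.02, adjusted p = 0.0144). Ndufa2, a matrix-arm subunit with a thioredoxin-like fold, had 0.19, 0.38 and 0.37 against −0.81, −0.50 and −0.37 (difference −0.88, adjusted p = 0.0141). In each of these genes the groups did not overlap, and the first control gradient of Ndufa13 was the highest of its 3. Such separation in this comparison was found with lower values in 13.6% of all tested genes and with higher values in 12.9%.

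The other accessory genes that fell started from different places. Ndufa5 and Ndufb6 were well recruited in the control, at 0.92, 0.86 and 0.65 and at 0.95, 0.84 and 0.70. With the Rpl11 shRNA, Ndufa5 stood at 0.17, −0.11 and 0.09 (difference −0.76, adjusted p = 0.0212) and Ndufb6 at 0.26, 0.19 and 0.21 (difference −0.61, adjusted p = 0.0214). Ndufa3 was already below 0, at −0.15, −0.12 and −0.18, and reached −0.95, −0.70 and −0.86 (difference −0.69, adjusted p = 0.0367). The fall was therefore seen in mRNAs with high and with low recruitment. Ndufa7, a matrix-arm subunit, went from 0.25, 0.25 and 0.12 to −0.41, −0.31 and −0.68 (difference −0.68, adjusted p = 0.0287). Ndufb8, of the distal membrane arm, went from 0.49, 0.41 and 0.31 to −0.18, −0.27 and −0.31 (difference −0.65, adjusted p = 0.0287). Ndufb9, a member of the LYR family that binds acyl carrier protein, just missed the threshold at −0.48 (limma adjusted p = 0.0511). Its groups did not overlap, as in the 13.6% of all tested genes that were apart and lower.

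Of the core names, Ndufv3 alone fell. It had 0.35, 0.25 and 0.26 in the control and −0.51, −0.35 and −0.43 with the Rpl11 shRNA (difference −0.72, SE 0.136, adjusted p = 0.0165). Ndufv3 is a small accessory subunit of the NADH-oxidising tip. Ndufs5, another accessory subunit of that name class, went from 0.83, 0.94 and 0.52 to 0.27, 0.03 and −0.14, and was not called (difference −0.71, SE 0.232, adjusted p = 0.0996). The biochemical core subunits lay between −0.44 for Ndufs7 and 0.59 for Ndufv1. Ndufs3, a subunit of the matrix arm, had 0.55, 0.78 and 0.65 in the control and 0.90, 0.85 and 0.75 with the Rpl11 shRNA, and was the best recruited member there.

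Ndufa9 was the accessory exception. This matrix-arm subunit, which resembles short-chain dehydrogenases and lies near the junction of the arms, had −0.07, −0.01 and −0.11 in the control and 0.84, 0.48 and 0.66 with the Rpl11 shRNA (difference 0.72, SE 0.171, adjusted p = 0.0388). Its polysomal signal went from 2709, 2025 and 2193 to 5042, 4188 and 5076. Ndufaf8 went the other way, from −0.62, −1.04 and −0.53 to −1.67, −1.47 and −1.39 (difference −0.78, SE 0.193, adjusted p = 0.0443). Both carry the TISU letters shown above, and the other carriers, Ndufs4 and Ndufs7, differed by −0.32 and −0.44 without being called. Among the other assembly factors, Ndufaf1 and Ndufaf7 lay at 0.63 and 0.61 and Ndufaf4 and Ndufaf5 at −0.43, none past the threshold.

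**Figure D3:**
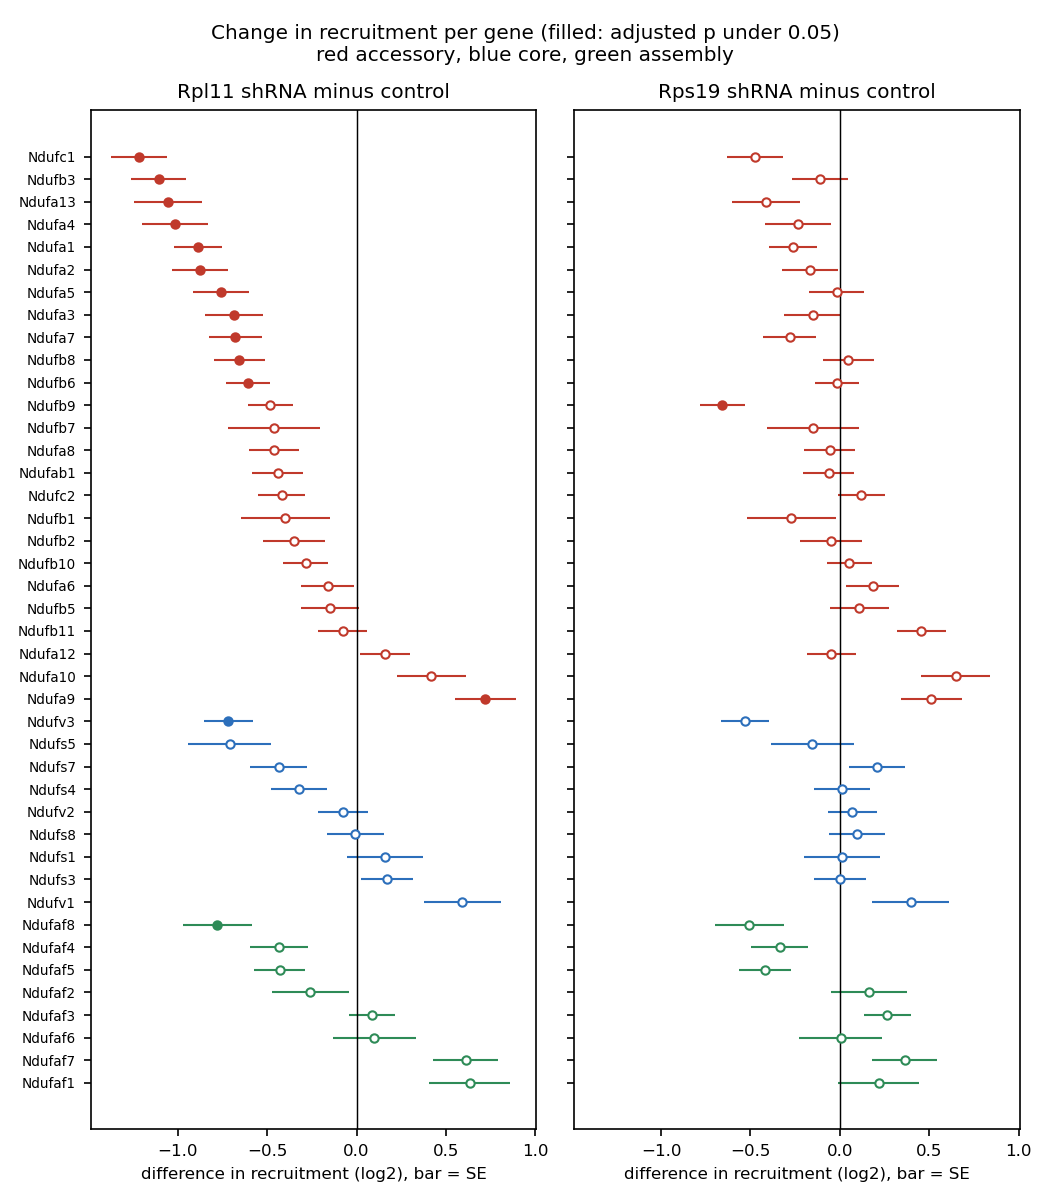
Difference in recruitment (log2, point with SE) of the 42 genes for the Rpl11 (left) and the Rps19 shRNA (right) against the control construct, with filled points for an adjusted p under 0.05. On the left 13 filled points lie below 0 and 1 above, and on the right the only filled point is Ndufb9.

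A gene's other probe sets gave a check on its brightest one. In 7 of the 13 members that fell there were 11 further probe sets above the dim limit, and all 11 had a difference below 0, from −1.20 to −0.15. Over all 22 members with further probe sets, 30 of 40 had the sign of the brightest one. Ndufa12 shows the opposite case: its brightest probe set gave 0.16, and those next in brightness gave −0.64 and −0.65. Its class median includes the 0.16.

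At the deposited scaling the larger shift was in the subpolysomal pool. Between the Rpl11 shRNA and the control, the subpolysomal signal was higher in 23 of 25 accessory genes (median 0.46) and the polysomal signal lower in 16 of 25 (median −0.14). For core genes the medians were 0.74 and 0.30, and for assembly factors 0.35 and 0.35. All tested genes had medians of −0.08 and −0.09. These pool differences are descriptions and carry no test of their own. They were taken at the deposited scaling alone, and another scaling of the arrays would move the values of each pool. They were not set against the genes as bright as the accessory members.

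Gradient by gradient, the accessory median was 0.25, 0.28 and 0.15 under the control construct and −0.16, −0.20 and −0.28 with the Rpl11 shRNA. Untransduced gradients had 0.10, 0.20 and 0.17, and Rps19 gradients had 0.25, 0.16 and 0.12. The core median was 0.35, 0.25 and 0.26 in the control and 0.27, −0.07 and −0.14 with the Rpl11 shRNA, so its first Rpl11 gradient did not leave the control range. The Gapdh ratio of the 3 Rpl11 gradients differed between the pools by 1.45, −0.87 and −0.59 (polysomal minus subpolysomal). Averaged over both pools the ratio was 0.27 in the first Rpl11 gradient, against 1.67 and 3.60 in the others and −0.41 to 0.04 in the other groups. Among the Rpl11 gradients, the accessory and core medians were highest at the lowest averaged ratio and lowest at the highest. Without Rpl11 replicates 2 and 3, which leaves 1 Rpl11 gradient that is assumed to vary like the other groups, Ndufc1 differed by −1.27, Ndufb3 by −0.96 and Ndufa1 by −0.95, and 0 members passed the threshold (adjusted p = 0.0536, 0.0679 and 0.0599). With the polysomal minus subpolysomal Gapdh ratio of each gradient in the model, those 3 genes gave −1.22, −1.09 and −0.89. That ratio lay above the other groups in the first Rpl11 gradient and below them in the others. The fit therefore does not adjust for the ratio averaged over both pools, which was higher in every Rpl11 gradient than in the other groups. Beyond these values, the part of RNA quality in the Rpl11 results was not tested.

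**Figure D4:**
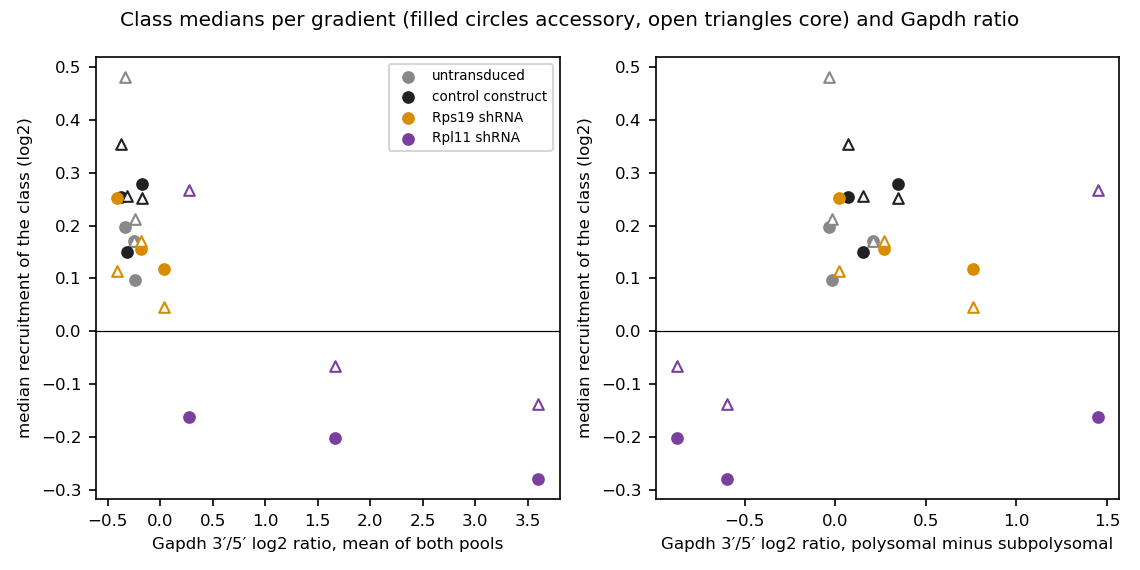
Median recruitment of accessory (filled circles) and core (open triangles) genes in each gradient against the log2 ratio of 3′ to 5′ Gapdh signal, as the mean of both pools (left) and as polysomal minus subpolysomal (right). The 3 Rpl11 gradients have the lowest accessory medians, from −0.28 to −0.16, and the lowest of them is at the highest mean ratio.

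With the Rps19 shRNA 1 complex I mRNA changed in recruitment relative to the control construct. Ndufb9 fell and the other 41 members were not called, where 0.87% of all tested genes were called, 0.58% lower and 0.29% higher. Ndufb9 had −0.01, 0.15 and 0.21 under the control construct and −0.51, −0.49 and −0.62 with the Rps19 shRNA (difference −0.66, SE 0.126, limma adjusted p = 0.0473). A second bright probe set of Ndufb9 also gave −0.66. Its signal averaged 0.414 of the array maximum. The call was lost in all 6 fits that left out a gradient (adjusted p from 0.106 to 0.175). Among the genes as bright as the accessory members 1.47% fell and 0.713% rose. The median difference was −0.06 for accessory, 0.01 for core and 0.08 for assembly genes. Ndufc1 (−0.47, SE 0.156), Ndufv3 (−0.53, SE 0.136) and Ndufa9 (0.51, SE 0.171) lay on the same side of 0 as with the Rpl11 shRNA without passing the threshold. Both comparisons share the control gradients.

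Set directly against each other, the 2 knockdowns differed in 1 member. Ndufb3 recruitment was 1.03, 1.03 and 0.88 with the Rps19 shRNA and 0.13, −0.12 and −0.05 with the Rpl11 shRNA (1.99-fold lower, SE 0.154 on the log2 scale, limma adjusted p = 0.0373), where 0.553% of all tested genes were called, 0.118% higher and 0.435% lower. Among the genes as bright as the accessory members 1.83% were lower and 0.223% higher. The median difference was −0.40 for accessory, −0.14 for core and −0.05 for assembly genes, and 22 of 25 accessory genes lay below 0. Those nearest to the threshold were Ndufb8 at −0.70 (SE 0.143, adjusted p = 0.0574), Ndufa5 at −0.74 and Ndufb6 at −0.59 (both adjusted p = 0.062) and Ndufc1 at −0.74 (adjusted p = 0.0628). The Ndufb3 call was lost in 5 of the 6 fits without 1 gradient (adjusted p from 0.0337 to 0.131), under each other scaling, with looser filters and with the replicate block.

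In level, 15 of 42 complex I mRNAs rose with the Rpl11 shRNA, Ndufv1 and Ndufa5 by the largest amounts in the brightest probe sets. Relative to the control construct 0 fell, where 20.2% of all tested genes were called, 8.73% higher and 11.5% lower. Among the genes as bright as the accessory members 12.7% were higher and 9.14% lower. Those that rose were 6 of 9 core, 4 of 8 assembly and 5 of 25 accessory genes, with median differences of 0.52, 0.49 and 0.13, against −0.08 over all tested genes. Among the 6 biochemical core subunits 3 rose, with a median of 0.41. Without control replicate 1, 2 or 3 the higher count was 8, 3 and 5, and without Rpl11 replicate 2 or 3 it was 5. No unfractionated RNA was used here, so level stands in for the amount of an mRNA.

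Ndufv1 rose most, from levels of 11.53, 11.17 and 11.46 to 12.37, 12.57 and 12.19 (difference 0.99, SE 0.171, limma adjusted p = 0.00452). Its other probe sets, about as bright, gave 0.47 and 0.81, so its place at the top depends on the probe set. Ndufa5 went from 11.61, 11.51 and 11.71 to 12.47, 12.52 and 12.54 (difference 0.90, SE 0.12, adjusted p = 0.00198). Ndufs1, which carries most of the iron-sulphur clusters of the NADH-oxidising module, went from 10.23, 10.27 and 10.47 to 11.55, 10.90 and 10.98 (difference 0.82, SE 0.186, adjusted p = 0.0135). These 3 were the members that kept the call in each of the 6 fits without 1 gradient. The groups did not overlap in any of them, and the first Rpl11 gradient of Ndufs1 stood above its other Rpl11 values. For level, the share of all tested genes with such separation is not given here.

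Ndufs4, needed for a stable NADH-oxidising module, went from 11.57, 11.12 and 11.34 to 12.10, 12.08 and 12.25 (difference 0.80, adjusted p = 0.0179). Ndufa9 went from 11.44, 10.99 and 11.16 to 11.88, 11.80 and 11.98 (difference 0.69, adjusted p = 0.0154), and was the member that rose in both measures. Ndufs5 went from 11.76, 11.34 and 11.77 to 12.10, 12.30 and 12.30 (difference 0.61, adjusted p = 0.021). All 3 carried their Rpl11 values above every control value, a separation whose share over all tested genes is not given here. Ndufs7, which holds the last iron-sulphur cluster before ubiquinone, went from 12.89, 12.98 and 13.00 to 13.22, 13.60 and 13.62 (difference 0.52, adjusted p = 0.0228). A second probe set of Ndufs7, about as bright, gave −0.08, so its rise depends on the probe set. Ndufb6 rose by 0.53 (adjusted p = 0.0256), and its second probe set gave 0.06.

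The assembly factors that rose act at different steps. Ndufaf1 went from 9.78, 9.64 and 9.82 to 10.13, 10.41 and 10.25 (difference 0.52, adjusted p = 0.0203). Ndufaf7, which methylates a core subunit, went from 9.21, 8.90 and 9.15 to 9.52, 9.70 and 9.56 (difference 0.51, adjusted p = 0.0261). Groups were apart in both, again without the share of all tested genes beside it. Ndufaf4 went from 11.89, 11.85 and 12.02 to 12.12, 12.69 and 12.62 (difference 0.56, adjusted p = 0.0311), and Ndufaf2, which binds a late intermediate, went from 10.22, 10.41 and 10.38 to 10.83, 10.75 and 10.88 (difference 0.48, adjusted p = 0.0372). The remaining calls were Ndufv3 (0.38), Ndufb7 (0.43) and Ndufb3 (0.49), with adjusted p from 0.048 to 0.0494. Ndufb7's second probe set gave −0.02.

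Of the 13 members that fell in recruitment, 4 rose in level (Ndufa5, Ndufb3, Ndufb6 and Ndufv3) and 9 were not called in level. Of the 15 that rose in level, 10 were not called in recruitment. The level counts differed between settings. With each array centred on its median the level difference of all genes had a median of 0.32 and 31 members were higher, and with the Gapdh ratio in the model 3 were higher (Ndufa5, Ndufs1 and Ndufv1), with class medians of 0.09 for accessory, 0.42 for core and 0.44 for assembly genes.

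**Figure D5:**
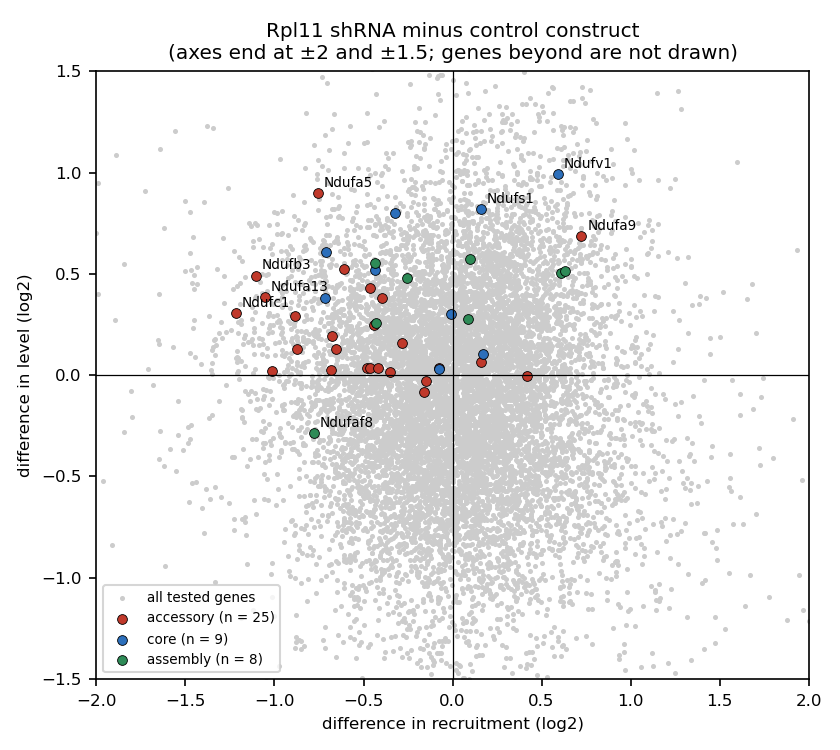
Difference in level against difference in recruitment (both log2, Rpl11 shRNA minus control construct) of all tested genes (grey) and of accessory, core and assembly genes (red, blue and green). Accessory genes gather left of 0 in recruitment, core genes lie at or above 0 in level, and Ndufa9 is high in both.

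With the Rps19 shRNA, 2 members passed the threshold in level in the fit without a replicate block, a subunit and an assembly factor. Ndufb8 fell from 13.79, 13.76 and 13.86 to 13.16, 12.76 and 12.88 (difference −0.87, SE 0.143, limma adjusted p = 0.0285), while its recruitment was 0.53, 0.40 and 0.42 against 0.49, 0.41 and 0.31. Its signal was thus lower in both pools, as the plot of signals by pool shows. A dimmer probe set of Ndufb8 gave −0.27. Ndufaf6, which acts early in assembly, rose from 9.97, 9.60 and 9.80 to 11.12, 10.45 and 10.85 (difference 1.02, SE 0.187, adjusted p = 0.0351). Of all tested genes 0.807% were called, 0.335% higher and 0.471% lower, and among those as bright as the accessory members 0.49% and 0.98%. In this comparison, deviations from the group means correlated between gradients of the same replicate number (0.53, 0.29 and 0.21). The labels do not say that a number marks a shared batch. With the replicate block both genes had a limma adjusted p of 0.0507 (0.084 and 0.0792 with these 2 groups alone). Leaving out 1 gradient lost the Ndufaf6 call in all 6 fits and the Ndufb8 call in 5 of 6.

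Between the knockdowns, 10 members had a higher level with the Rpl11 than with the Rps19 shRNA and 0 a lower one, where 20.5% of all tested genes were called, 8.6% higher and 11.9% lower. Among the genes as bright as the accessory members 12.4% were higher and 9.14% lower. The Rpl11 arrays carry the Gapdh ratios given above, and with that ratio in the model 4 were higher. With only these groups fitted 4 were higher, and with 1 gradient left out 6 to 15, namely 15 without Rpl11 replicate 1 and 6 without Rps19 replicate 2. Ndufb8 differed by 1.00, having 13.83, 14.00 and 13.96 with the Rpl11 shRNA. The other 9 were Ndufa5, Ndufv1, Ndufaf7, Ndufaf1, Ndufs7, Ndufs1, Ndufb3, Ndufs5 and Ndufaf2.

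Other parts of the respiratory chain gave a frame for complex I. Beside the counts that follow, 3.56% of all tested genes fell and 2.11% rose in recruitment with the Rpl11 shRNA against the control construct (12% and 3.83% of those as bright as the accessory members). In that comparison 8 of 17 ATP synthase subunits fell and 1 rose (median −0.54). Atp5md fell by 1.71 (SE 0.239, limma adjusted p = 0.0087), whereas the catalytic subunit Atp5a1 rose by 0.76 (SE 0.137, adjusted p = 0.0144). Of 9 complex III subunits 4 fell and 1 rose (median −0.40), with Uqcr11 at −0.82 and Uqcrq at −0.95. Of 9 complex IV subunits 3 fell and 0 rose (median −0.50), with Cox7a2 at −0.83 and Ndufa4, counted there too. Of 8 complex II genes 1 fell, Sdhaf2 (−0.87). Tricarboxylic acid cycle enzymes, which are matrix proteins, had 2 of 11 higher and 0 lower (median 0.50), with Mdh2 at 0.72 and Idh3g at 0.50. Of 14 complex I assembly factors with other names, Lyrm2 (−1.19) and Dmac1 (−0.81) fell and the median was 0.06. Lyrm2 was also the one gene of these lists called with the Rps19 shRNA (−1.17, SE 0.202, adjusted p = 0.0418).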

How the data were processed

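For 24 arrays, the authors deposited 1 intensity value for each of 45101 probe sets, made with MAS5 per the submitters' processing notes (version not given in the sources used here). A deposited table of the polysomal fraction of each signal, per the file headers, was recomputed within 7.1e-10. The trimmed mean (2% per end) was 500 on each untransduced, control and Rps19 array and 499.774 to 499.813 on the Rpl11 arrays. Whether the Rpl11 arrays were processed apart from the others was not tested. Signals were used as deposited, as log2(signal + 7.85), 7.85 being 0.1 of the median. In 2 probe sets values were missing and they were left out. R 4.3.3 and limma 3.58.1 were used with the 4 groups as factor, and 3 gradients per group limit the precision.

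Members with a called difference are named, up to 12 per comparison with values per gradient, with the 2 highest and 2 lowest per class in untransduced cells. Members and lists were chosen with earlier results of these data known. Replicate numbers did not pair gradients in recruitment (0 of 18 correlations above 0.1, −0.126 to 0.0871). In level 7 of 18 were above 0.1, including all 3 of control with Rps19 shRNA. Alternatives covered scaling, pseudocount, filter, probe sets, groups fitted, block, Gapdh ratio and left-out gradients. The Gapdh ratio was polysomal minus subpolysomal for recruitment and the mean of both pools for level. The mitochondrially encoded subunits were not analysed here.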

Additional observations from a re-analysis of the deposited data

How the results depend on the processing

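No member called between groups changed direction under the alternatives run. Against 0 in untransduced cells, Ndufa10 and Ndufb11 turned to 0.42 and 0.054 when array medians were set equal. In recruitment with the Rpl11 shRNA against the control, the 13 lower members became 5 with each array centred on its median, 5 with all arrays quantile normalized, 3 with no filter, 7 with the lower 25% left out, 0 with only the compared groups fitted, and 0 without Rpl11 replicates 2 and 3. Leaving out 1 gradient gave 4 to 11. The 1 higher member became 0 with median centring, no filter, the 25% filter, only the compared groups, the mean of probe sets, the replicate block, and without Rpl11 replicates 2 and 3, and 3 with the Gapdh ratio, and leaving out 1 gradient gave 0 to 3. The block left 9 lower members. For the Rps19 shRNA, Ndufb9's call gave 0 with median centring, no filter, the 25% filter, only the compared groups, the mean of probe sets and the block, and 0 to 0 with 1 gradient left out. For Rpl11 against Rps19 shRNA the 1 lower member became 0 under every scaling, both filters, only the compared groups, the mean of probe sets and the block, and 4 with a pseudocount of the median, and leaving out 1 gradient gave 0 to 1. Against 0, untransduced counts of 16 and 4 became 40 and 0 with median centring, 2 lower with quantile scaling and 10 and 2 with that group alone, and leaving out 1 gradient gave 11 to 15 and 2 to 4. Control counts of 16 and 5 became 35 and 0, then 10 and 3 alone, with 10 to 13 and 2 to 3. In level with the Rpl11 shRNA the 15 higher members became 31 with median centring, 5 with no filter, 9 with the 25% filter, 3 with only the compared groups, 9 with the mean of probe sets (and 1 lower), 3 with the Gapdh ratio and 3 without Rpl11 replicates 2 and 3, with 3 to 18 when 1 gradient was left out. The block left 13. For level with the Rps19 shRNA the 1 higher and 1 lower member became 0 and 0 with no filter, the 25% filter, only the compared groups and both block fits, the lower one also 0 with the mean of probe sets, and leaving out 1 gradient gave 0 to 0 and 0 to 1. For Rpl11 against Rps19 shRNA the 10 higher became 29 with median centring, 4 with only the compared groups and 4 with the Gapdh ratio, with 6 to 15 when 1 gradient was left out, and 1 was lower under both quantile scalings and the mean of probe sets. The looser filters test more genes and the smaller fits use fewer gradients. For the other changes the cause was not tested. Averaged over all arrays, the signals of Ndufa1 and Ndufb9 were 0.421 and 0.414 of the array maximum, the highest shares among the members. Differences may be compressed there.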

Other observations

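Probe sets that name several genes were outside the members and gave further values for complex I. A bright probe set shared by Ndufb4, Ndufb4b and Ndufb4c had a mean recruitment of 0.51 ± 0.05 (SD, n = 3) in control gradients, 0.18 ± 0.14 in Rps19 gradients and −0.62 ± 0.10 in Rpl11 gradients. One shared by Ndufs6 and Ndufs6b had 0.41 ± 0.12, 0.02 ± 0.13 and −0.60 ± 0.20 in the same groups. One shared by Ndufa11 and Ndufa11b had 0.92 ± 0.33, 0.76 ± 0.17 and 0.29 ± 0.23. In the first 2 the Rps19 mean lay between the control and the Rpl11 mean. None of these was tested.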
